A study of Lotus japonicus with 36 samples.

Results

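Root nodules of Lotus japonicus MG-20 were compared between the second day after nitrate withdrawal (R2) and the first day after it (R1). These 6 RNA-seq libraries, 3 per day, were taken from a series of 36. Per the labels, R2 nodules had been without 10 mM KNO3 for 2 days and R1 nodules for 1 day. Models that nitrate had moved were defined by nodules on day 6 of 10 mM KNO3 (T6) against untreated nodules at 4 weeks after inoculation with rhizobia (T0). Groups T1 to T5 (days 1 to 5 of nitrate) and R3 to R5 (days 3 to 5 after withdrawal) completed the daily course. All groups share the genotype MG-20. Libraries of a day are biological replicates, according to the series' design text, and the sources used here do not say after how many nitrate days withdrawal started. Nodules were collected daily, per the series' design text, so the step between days and any difference between the collections of R2 and R1 cannot be told apart. T0 is the only untreated group of the series. In T6 against T0, nitrate therefore cannot be told apart from nodule age or from the day of collection. Wording below such as nitrate change, or moved by nitrate, stands for this comparison.

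A legume nodule is a root organ in which rhizobia fix nitrogen for the plant in exchange for carbon. Nitrate in the medium makes this exchange dispensable: fixation is known to decline, and nodules kept on nitrate move towards senescence. Withdrawal of nitrate can let a nodule regain function, and a daily course after withdrawal follows the order in which its transcripts return.

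The unit of every count is the transcript model, and models of 1 locus can share reads. No ID in the table could be paired with a gene name, since 0 of them matched RefSeq's gene table for Lotus japonicus, so no gene function and no sequence is given. The R2 and R1 libraries held between 37848013 and 40371694 counts. Within R2 the correlation of log2 CPM (counts scaled by library size) between libraries lay between 0.972 and 0.974, and within R1 between 0.973 and 0.976. Whole nodules were sequenced, so fewer cells of a type and less RNA per cell cannot be told apart.

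On the second day after withdrawal, 2063 models were higher and 1295 lower than on the first day. A call needed an adjusted p under 0.05 in edgeR's quasi-likelihood test and at least a 2-fold change. The calls made up 4.09% and 2.57% of the 50475 models tested, or 6.65% together, and came from 1773 and 1161 loci. Called rises had a median of 1.69 and called falls a median of -1.65 in fitted log2 fold change, given below as the log2 change. Changes of at least 4-fold were found in 811 of the higher and 424 of the lower models. Fewer calls separated R1 from T6, the last nitrate group: 279 models (0.553% of those tested) passed. That count was 14 without R1 replicate 2, 76 without R1 replicate 1, 100 without T6 replicate 2 and 118 without T6 replicate 1. It was 534 by DESeq2 and 596 in a fit of these 6 libraries alone. Whether the difference of R2 from R1 exceeded that of R1 from T6 was not tested as such. The lower count in R2 fell from 1295 without any single R2 or R1 library. It was 818 without R2 replicate 1, 882 without R1 replicate 3 and at most 1209, without R2 replicate 3.

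The calls of the second day lay almost entirely on models that nitrate had moved, and ran against nitrate. Between T0 and T6, 10279 models (20.4% of those tested) were called higher and 9777 (19.4%) lower. Their fold changes were computed without R2 and R1, although all 36 libraries share the dispersion estimate of the fit. These models are called nitrate risers and nitrate fallers. Of the 3358 models called in R2 against R1, 2956 (88.0%) moved opposite to nitrate and 31 in the same direction as nitrate. The other 371 (11.0%) had no call in T6 against T0. Among the 2063 higher models 1793 (86.9%) were nitrate fallers, and among the 1295 lower models 1163 (89.8%) were nitrate risers. Across all 50475 tested models the fold changes of both comparisons, which share no library, were correlated at -0.54 (Pearson) and -0.58 (Spearman). Across the 33591 models that averaged 1 CPM or more these were -0.70 and -0.69. The points are models of the same 12 libraries and are not independent replicates.

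**Figure D1:**
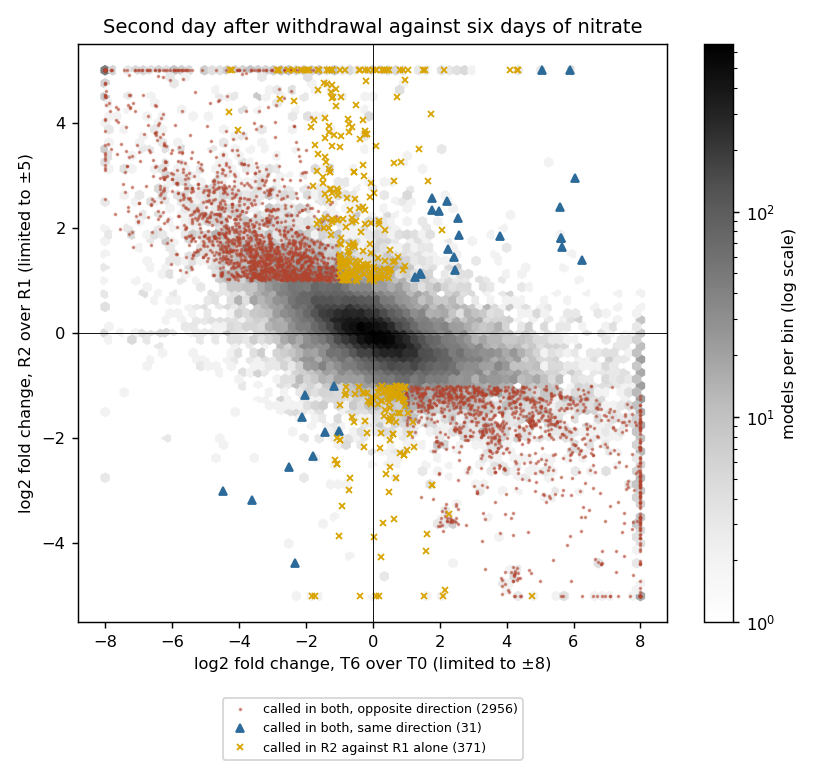
Log2 fold change of R2 over R1 (vertical) against log2 fold change of T6 over T0 (horizontal) for 50475 transcript models, as shaded bins on a log scale. Red points are the 2956 models called in both comparisons in opposite directions, blue triangles the 31 called in both in the same direction, and yellow crosses the 371 called in R2 against R1 alone.

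Seen from the nitrate side, most moved models shifted back by a small amount and a minority was called back at 2-fold or more. Of the 9777 nitrate fallers, 1793 (18.3%) were called higher in R2 than in R1, beside 4.09% of all tested models, and 10 were called lower. Of the 10279 nitrate risers, 1163 (11.3%) were called lower, beside 2.57% of all tested models, and 21 were called higher. The fitted change pointed against nitrate in 8315 fallers (85.0%) and 8714 risers (84.8%), whatever its size. The median fold change was 0.59 for fallers and -0.47 for risers on the log2 scale, beside -0.01 for all tested models. Every R2 library lay above every R1 library in 4583 fallers (46.9%), beside 16.4% of all tested models. Every R2 library lay below every R1 library in 5023 risers (48.9%), beside 17.4% of all tested models. The 1163 risers called lower were fewer without any single R2 or R1 library. They were 746 without R2 replicate 1, 806 without R1 replicate 3 and at most 1078, without R2 replicate 3.

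The size of the nitrate change and the level of a model bore on whether it was called. Of fallers that nitrate had lowered 2 to 4-fold, 5.14% were called higher in R2. This share was 25.3% of those lowered 4 to 16-fold and 44.4% of those lowered more. Among the 265 fallers lowered over 16-fold that averaged 10 CPM or more over all libraries, 244 (92.1%) were called higher. For risers the shares over the same sizes were 3.18%, 11.9% and 27.1%. Of the 698 risers raised over 16-fold at such a level, 256 (36.7%) were called lower. Under 1 CPM the shares were lower, with 11.5% of fallers and 11.4% of risers changed over 16-fold by nitrate.

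The fallers that came back were also the better expressed ones before treatment. The 1793 fallers called higher in R2 had a median level of 11.1 CPM in T0, beside 3.23 CPM in the other 7984 fallers, and a median nitrate change of -3.46 beside -1.82 on the log2 scale. Their median length was 1422 bp, beside 1154 bp in the other fallers and 1138 bp in all tested models with a length. The 1163 risers called lower had a median T6 level of 16.6 CPM, beside 5.87 CPM in the other risers, and a median nitrate change of 4.06 beside 2.09. They were shorter, with a median of 920 bp beside 1114 bp. Counts and power grow with length and level, and the part of that in these differences was not tested. The share of moved models called back varied little with the number in the Lj prefix of the ID, from 13.4% for prefix 5 to 16.8% for prefix 3.

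Each library was then placed on a line that runs from the average log2 CPM of T0 libraries (0%) to that of T6 libraries (100%). Over the 9777 fallers the R2 libraries lay between 59.0% and 60.7% and the R1 libraries between 92.0% and 92.7%. The difference was -32.4 ± 0.53 points (SE, two-sided exact permutation p = 0.1, which is the lowest value possible for 3 libraries against 3). Over the 10279 risers the R2 libraries lay between 65.4% and 68.5% and the R1 libraries between 87.9% and 90.2%, a difference of -21.5 ± 1.20 points (SE, exact p = 0.1). The libraries of both days did not overlap in either class, and the spread within a day was small beside the step. A faller that regains a given part of its loss and a riser that sheds the same part of its gain do not lie equally far along a log scale, so the 2 steps are not a comparison of recovery between classes.

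**Figure D2:**
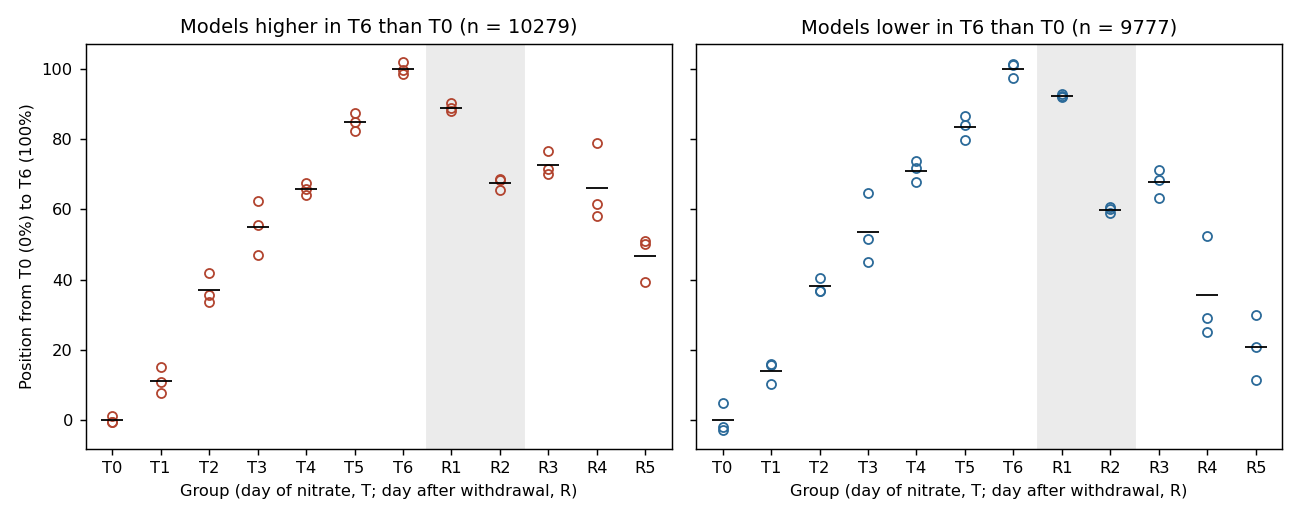
Position of each library (open circles) and mean of its group (bars) on the line from T0 (0%) to T6 (100%), for models higher in T6 (left) and lower in T6 (right), by group in order of time. The shaded days are R1 and R2: R2 libraries lie between 65.4% and 68.5% for risers and between 59.0% and 60.7% for fallers, below all R1 libraries.

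On the third day after withdrawal the libraries lay nearer to T6 than on the second. Fallers stood at 67.7 ± 3.96% in R3 (SD, n = 3), 7.75 points above R2 (exact p = 0.1), and risers at 72.7 ± 3.34%, 5.29 points above R2 (exact p = 0.1), in both cases without overlap of libraries. R4 then lay at 35.6 ± 14.7% for fallers, against R3 (exact p = 0.1), and at 66.2 ± 11.2% for risers (exact p = 0.4). R4 replicate 1 stood apart from the other R4 libraries at 52.4% for fallers and 78.9% for risers. For fallers the largest differences from the day before were those of R2 and of R4, at -32.4 and -32.1 points, the second with a wide spread between libraries.

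In shares of all counts the step was visible in every library. The nitrate fallers took 14.2%, 14.3% and 14.0% of the counts in the R2 libraries and 8.04%, 7.63% and 8.20% in the R1 libraries, a mean difference of 6.20 points (exact p = 0.1). The nitrate risers took 38.3%, 38.2% and 38.0% in R2 and 47.5%, 48.8% and 47.7% in R1, a mean difference of -9.79 points (exact p = 0.1). No R2 library reached the range of R1 in either class. In T6 the fallers held 6.70 ± 0.68% and in T0 44.0 ± 2.20% of the counts, and the risers 53.4 ± 2.31% in T6 and 9.82 ± 0.54% in T0 (SD, n = 3), values that the choice of these models fixes. In R3 the fallers were at 11.6 ± 0.61% and the risers at 40.8 ± 1.71%, between R2 and R1 in both classes.

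Moved models were next divided by the first nitrate day on which they were called against T0, a division that was made after the data had been seen and that compares nitrate days with T0 alone, within the fit that all libraries share. Over all tested models, the calls behind it were 2%, 10.6%, 13.1%, 18.4% and 21.2% higher than T0 on days 1 to 5, and 1.3%, 8.54%, 10.8%, 15.7% and 16.3% lower. Among fallers, 30.3% of those first called on day 1 and 29.1% of those of day 2 were called higher in R2. The shares were 21.8%, 12.7%, 10.4% and 5.60% for days 3, 4, 5 and 6. Among risers the share was 27.8% for day 1, 13.0% for day 2, 8.76% for day 3, 5.95% for day 4, 9.29% for day 5 and 8.99% for day 6. With a threshold of 4-fold in R2 against R1 and the same nitrate classes, the difference between day 1 and day 6 risers turned to -2.54 percentage points. The day of first call goes with the size of the nitrate change, whose median was -2.46 for day 1 fallers and -1.40 for day 6 fallers. Within 1 size and level the order was not uniform. Among fallers lowered 4 to 16-fold at a mean of 1 to 10 CPM, 35.8% of those of days 1 and 2, 30.8% of those of days 3 and 4 and 31.2% of those of days 5 and 6 were called higher. Among risers raised 4 to 16-fold at a mean of 10 CPM or more, the shares called lower for those pairs of days were 13.9%, 7.13% and 44.1%.

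The step along the line, which does not depend on calls in R2, gave another order. For fallers it lay between -34.2 points for those first called on day 2 and -26.8 ± 3.02 points (SE) for those of day 6. For risers it was -25.4 ± 1.84 points for day 1, -17.7 ± 1.18 for day 2, -18.8 ± 1.44 for day 3, -22.4 ± 3.25 for day 4, -30.1 ± 2.48 for day 5 and -44.1 ± 3.49 points for day 6 (SE, exact p = 0.1 in each class). Risers first called on day 6 stood at 24.1 ± 3.79% in R2, against 68.3 ± 4.70% in R1, and at 63.6 ± 8.83% in R3 (SD, n = 3). As a percentage of their own line, risers of day 6 thus made the largest move of the 6 riser classes in R2. In R3 they stood near their R1 level. Each class has its own line, on which models that nitrate changed more weigh more. The median nitrate change was 1.36 for day 6 risers and 2.71 for day 1 risers on the log2 scale. The median log2 change of R2 against R1 was -0.40 for day 6 risers, beside -0.82 for day 1 risers. Risers first called on day 1 stood at 70.9 ± 2.84% in R2, against 96.3 ± 1.45% in R1, and at 71.5 ± 6.21% in R3. Models first called on day 6 were chosen by their T6 level, which places T6 at the far end of their line.

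**Figure D3:**
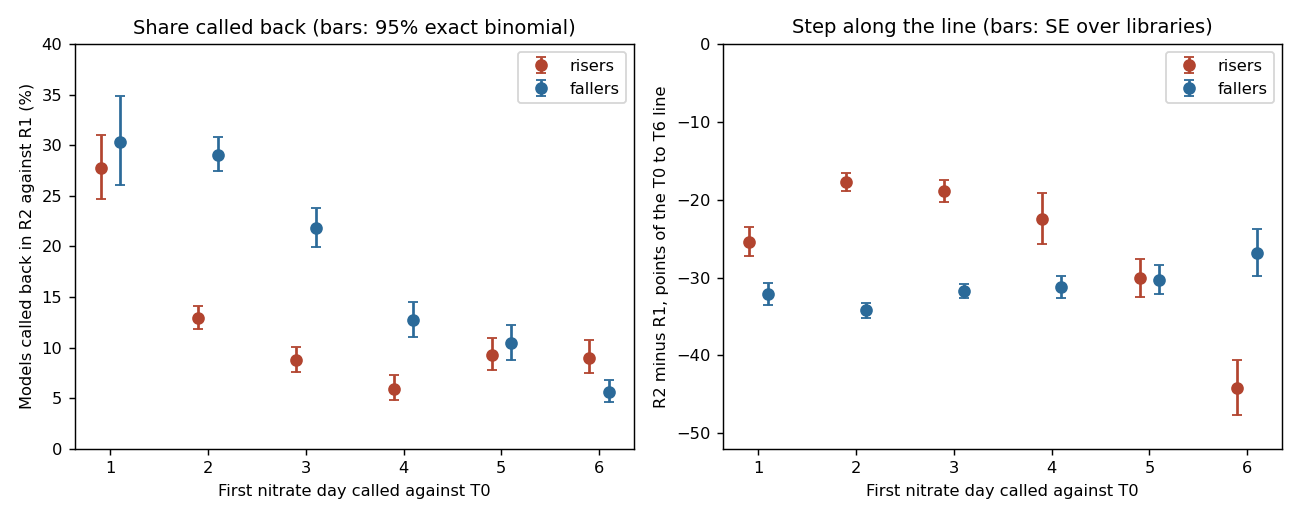
Left, percentage of nitrate risers and fallers called back in R2 against R1, by the first nitrate day called against T0, with 95% exact binomial intervals that cover counting error only. Right, R2 minus R1 in points of the line from T0 to T6 for the same classes, with SE over libraries: fallers lie between -34.2 and -26.8, and risers of day 6 reach -44.1.

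The models with the largest fold changes show what this step looked like in single transcripts. Lj1g3v0410090.1, of 1137 bp, had 7.24, 19.0 and 12.4 CPM in R2, against 0.169, 0.166 and 0.140 CPM in R1. All R2 values lay far above all R1 values, a log2 change of 6.32 ± 0.88 (SE, edgeR adjusted p = 1.89e-05). Nitrate had lowered this model, whose mean was 290 CPM in T0, 39.5 CPM in T2 and 0.139 CPM in T6. After R2 its mean was 6.48 ± 5.37 CPM in R3 and 258 ± 116 CPM in R4 (SD, n = 3). 1 other row of the table holds the same counts, so these 2 models cannot be separated.

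Lj3g3v1855560.1, of 1030 bp, was at 19.3, 22.4 and 23.2 CPM in R2 and at 0.254, 0.221 and 0.783 CPM in R1. Its log2 change was 5.68 ± 0.40 (SE, edgeR adjusted p = 9.2e-10). Nitrate had lowered it, to 0.491 ± 0.0876 CPM in T6 against 4.13 ± 0.817 CPM in T0 (SD, n = 3). In R2 it therefore stood above its untreated level (log2 change against T0 2.39 ± 0.32, edgeR adjusted p = 6.34e-07). Its mean was 26.2 CPM in R3, 13.9 CPM in R4 and 4.91 CPM in R5, close to T0 again on the last day. Only 30.6% of its count values were whole, so part of its reads is shared with other models.

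Among the falls, Lj6g3v1995740.2, of 1382 bp, was at 0.503, 1.00 and 1.19 CPM in R2 and at 60.3, 36.5 and 103 CPM in R1. Its log2 change was -6.21 ± 1.10 (SE, edgeR adjusted p = 0.000318). It had peaked on the last nitrate day, with 368 ± 93.9 CPM in T6 against 0.452 ± 0.215 CPM in T0 (SD, n = 3), and had been at 20.3 CPM in T5. On the day after R2 it was back at 70.1 ± 55.8 CPM, near its R1 mean of 66.5 ± 33.5 CPM. Lj1g3v1648770.1, of 1270 bp, had 0 counts in 2 R2 libraries and 0.269 CPM in the other, and was at 38.8, 4.17 and 13.3 CPM in R1. Its fitted log2 change was -7.72 ± 1.79 (SE, edgeR adjusted p = 0.00635) and lay between -12.5 and -6.57 when single R2 or R1 libraries were left out. It had 0 counts in T0, 4.36 ± 1.57 CPM in T5 and 97.7 ± 32.8 CPM in T6, and its R3 libraries averaged 5.74 ± 8.15 CPM.

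**Figure D4:**
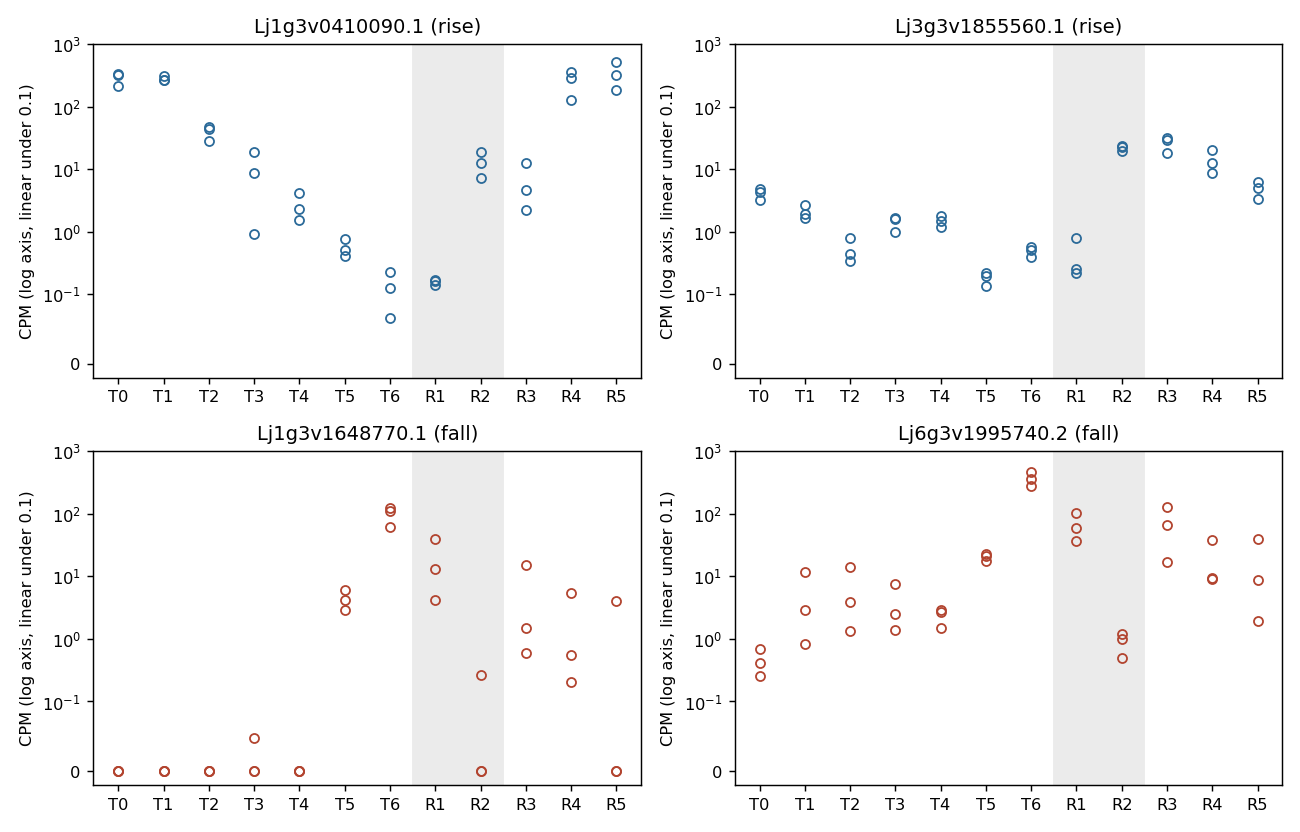
CPM of the 2 largest rises (blue) and 2 largest falls (red) of R2 against R1 in each library, by group in order of time, on an axis that is logarithmic above 0.1 CPM and linear below. The shaded days are R1 and R2; Lj6g3v1995740.2 stands between 0.503 and 1.19 CPM in R2 and between 36.5 and 103 CPM in R1, and is high again in R3.

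The largest changes in CPM belonged to abundant models. The largest rise in CPM, by a model of 471 bp, took it to 3525, 3532 and 3269 CPM in R2, against 1206, 1133 and 1650.2 CPM in R1 (log2 change 1.37 ± 0.30, edgeR adjusted p = 0.00266). In CPM this was a small part of its way back, since it averaged 23827 ± 4978 CPM in T0 and 17213 ± 6495 CPM in R4 (SD, n = 3). On the log2 scale it stood 1.47 ± 0.30 above T6 in R2, beside a nitrate change of -4.26 ± 0.34 (SE). None of its count values was whole, so reads are shared with other models. The next rise, by a model of 461 bp, took it to 2265, 2507 and 2995 CPM in R2, against 473, 475 and 814 CPM in R1 (log2 change 2.14 ± 0.35, edgeR adjusted p = 0.000152) and its T0 mean was 11322 ± 1520.2 CPM. R2 libraries lay above R1 libraries without overlap in both.

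The largest fall in CPM was that of a model of 3062 bp, with 434, 375 and 418 CPM in R2 and 1476, 1345 and 2174 CPM in R1 (log2 change -2.03 ± 0.36, edgeR adjusted p = 0.000343). It did not differ detectably from T0 in R2 (286 ± 21.0 CPM in T0, log2 change 0.52 ± 0.35, edgeR adjusted p = 0.241), and its R3 mean was 1707 ± 644 CPM. The next fall, of a model of 764 bp, left 436, 387 and 459 CPM in R2 and 1518, 1466 and 1824 CPM in R1 (log2 change -1.91 ± 0.48, edgeR adjusted p = 0.00742). Nitrate had raised this model from the first day on, to a mean of 1894 CPM in T6 against 159 CPM in T0. Its mean after R2 was 446 ± 171 CPM in R3 and 373 ± 381 CPM in R4, near its R2 level, whereas the model of 3062 bp was back at its R1 level in R3.

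Models called back in R2 were followed on the later days, whose libraries enter their choice through the shared dispersion estimate and not through the fold change. Fallers called higher in R2 stood on days R3, R4 and R5 at 61.8 ± 3.69%, 27.4 ± 14.0% and 14.7 ± 8.28% of the line (SD, n = 3). The other fallers stood at 71.9 ± 4.17%, 41.4 ± 15.2% and 25.2 ± 10.0% on those days. Risers called lower stood at 61.8 ± 6.20%, 61.5 ± 12.6% and 39.5 ± 3.20%, and the other risers at 76.6 ± 2.39%, 67.8 ± 10.7% and 49.4 ± 9.71%. Both kinds of called models were thus on average nearer to T0 than the others on each of the 3 later days, with overlapping spreads in R4 and R5. Called and other models were measured in the same libraries, so these SDs are not the spread of the gap between them. That gap was not tested. On the nitrate days the risers called lower lay closer to T0 than the others from T2 to T5. The gap was widest in T4, at 51.9 ± 0.92% beside 70.7 ± 2.04%. In T1 the order was reversed, at 13.1 ± 0.98% beside 10.6 ± 4.69%. Fallers called higher lay at 69.0 ± 4.47% in T4 beside 72.6 ± 2.07% in the other fallers, and at 84.0 ± 3.39% beside 82.9 ± 3.55% in T5.

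**Figure D5:**
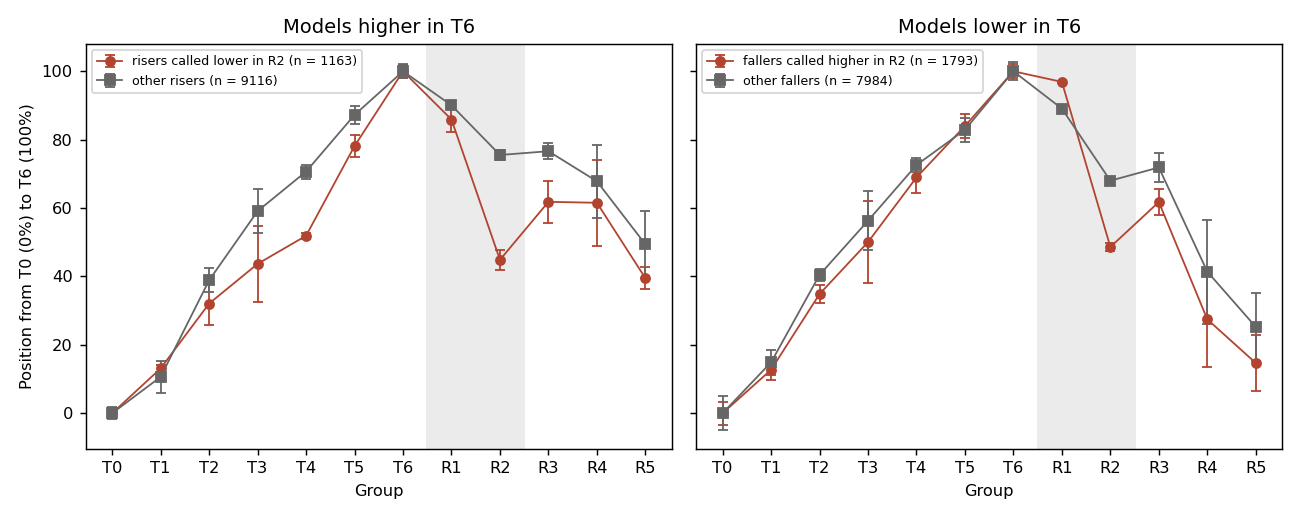
Mean position (± SD over 3 libraries) on the line from T0 (0%) to T6 (100%) of models called back in R2 against R1 (red) and of the other moved models (grey), for nitrate risers (left) and fallers (right). R2 and R1, shaded, chose the red models; in R5 these stand at 39.5% and 14.7%, and the others at 49.4% and 25.2%.

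The fallers that came back in R2 moved again on the fourth day, after lying nearer to T6 in R3 than in R2. They stood at 48.6 ± 1.21% of the line in R2 and 61.8 ± 3.69% in R3 (SD), the other fallers at 68.0 ± 0.80% and 71.9 ± 4.17%. Risers called lower stood at 44.9 ± 2.84% and 61.8 ± 6.20%, the other risers at 75.5 ± 1.46% and 76.6 ± 2.39%. R2 itself chose the called models. Of the 1793 fallers, 858 (47.9%) were called higher in R4 than in R3, beside 1286 (16.1%) of the other fallers and 6.29% of all tested models. This comparison shares no library with R2 against R1. Without R4 replicate 1 the shares were 55.2% and 20.6%, and in fits of the compared libraries alone 32.0% and 9.24%. The groups were not matched for level or size of change. Of the 1163 risers called lower in R2, 115 (9.89%) were called lower in R4 than in R3 and 153 (13.2%) higher, beside 2.33% and 6.29% of all tested models. Of the other 9116 risers, 547 (6.00%) were called lower and 402 (4.41%) higher. Without R4 replicate 1, which stood apart, 232 (20.3%) of the risers called lower in R2 were called lower in R4 and 82 (7.18%) higher, so the balance of directions turned with this library. The 115 called lower were 55, 70 and 65 without R1 replicates 1, 2 and 3, 55 without R2 replicate 1 and 64 without R4 replicate 3 or R3 replicate 3, and the 153 called higher were 80 without R2 replicate 1. In R5 against R4, 304 (26.1%) of the 1163 were called lower and 3 higher, against 961 (10.5%) lower among the other risers, and beside 2.91% of all tested models called lower and 1.29% higher. Without R4 replicate 1 the shares called lower were 12.5% (143 models) and 4.25%. The 304 were 182 without R2 replicate 1 and 199 without R1 replicate 3. A fit of R5 and R4 libraries alone called 0 of 43582 models by edgeR. DESeq2 on all libraries called 383 (30.0%) of its 1276 risers called lower in R2 lower again in R5. This compares with 1080 (12.3%) of its other risers. The comparisons of R5 with R4 and of R4 with R3 share the R4 libraries.

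A smaller set changed in R2 without a call in T6 against T0. There were 249 higher and 122 lower models of this kind, 0.82% and 0.40% of the 30419 models without that call. Lack of a call does not mean lack of change. The median log2 change of T6 against T0 was -0.70 in the higher set and 0.51 in the lower set, beside 0.03 for all tested models. Of these sets, 100 of the higher and 65 of the lower had been called on at least 1 of the nitrate days 1 to 5. These were 40.2% and 53.3%, beside 21.5% of all models without a call in T6 against T0. The median difference from T0, in log2 of mean CPM + 1, of the higher set was 0.15 in R3, 0.16 in R4 and 0.12 in R5, beside 0.03, 0.01 and 0.04 for all tested models. For the lower set it was -0.07, -0.06 and -0.07.

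The largest rises of this set leaned on R2 replicate 1. Lj2g3v2614070.1 was at 46.2, 1.95 and 3.29 CPM in R2 and at 1.02, 1.05 and 1.03 CPM in R1 (log2 change 4.05 ± 0.76, edgeR adjusted p = 0.000553). Without R2 replicate 1 its log2 change was 1.34 (edgeR adjusted p = 0.093). Lj1g3v2582400.1 was at 66.9, 11.4 and 10.9 CPM in R2 and at 0.451, 0.939 and 1.15 CPM in R1 (log2 change 5.13 ± 1.25, edgeR adjusted p = 0.00623), and without R2 replicate 1 the log2 change was 3.72 (edgeR adjusted p = 0.0574). Only 5.56% of its count values were whole.

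The largest falls of this set lost their call without single libraries. Lj3g3v0931350.1, of 1798 bp, was at 78.4, 106 and 111 CPM in R2 and at 396, 274 and 667 CPM in R1 (log2 change -2.18 ± 0.53, edgeR adjusted p = 0.00657, and -1.72 with an edgeR adjusted p of 0.0544 without R1 replicate 3). It averaged 1149.7 CPM in T0, 115 CPM in T4, 193 CPM in T5, 1330.2 CPM in T6 and 1369.6 CPM in R3. Lj0g3v0112799.1, of 718 bp, was at 1.76, 2.28 and 7.54 CPM in R2 and at 75.9, 20.2 and 67.7 CPM in R1 (log2 change -3.83 ± 1.03, edgeR adjusted p = 0.0129). Its log2 change was -3.48 without R2 replicate 1 (edgeR adjusted p = 0.0744) and -3.56 without R2 replicate 2 (edgeR adjusted p = 0.0692). It averaged 86.5 CPM in T0, 4.25 CPM in T4, 5.94 CPM in T5, 265 CPM in T6 and 225 CPM in R3. The means of both were low in T4, T5 and R2 and high in T0, T6 and R3.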

How the data were processed

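Per the labels' protocols, nodule RNA came from a TransZol Plant extraction and NEBNext Ultra II was used for the libraries. Per the submitters' processing notes, fastp 0.22.0, HISAT2 and featureCounts were used; for the genome build, annotation and strand setting: not given in the sources used here. The authors deposited estimated counts for 50526 transcript models, of which 49.6% of values were not whole (tolerance 0.001), and FPKM values, which served only to derive model lengths. Estimated counts were rounded and fitted with edgeR 4.0.16 in R 4.3.3 (glmQLFit, glmQLFTest, TMM, filterByExpr) in 1 model of all 36 libraries with 12 group means, which kept 50475 models. p-values were adjusted over all of them by Benjamini-Hochberg. SEs were derived from the fold change and its F statistic. CPM uses TMM-adjusted library sizes, and the line from T0 to T6 uses log2 CPM with a prior count of 2. The procedure was tested on simulated data. Library totals ran from 34194054 to 45795038 counts. DESeq2 1.42.0 was an alternative.

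Models named by ID are the 2 largest rises and 2 largest falls in fold change among called models that averaged 10 CPM or more on the higher day and had no overlap of libraries, 1 per locus, over all models and over those without a call in T6 against T0. The largest changes in CPM are given by length. Members and rules were chosen with earlier results of these data known. The edgeR p-values weigh a difference between groups against the spread between libraries within groups, estimated over all libraries of the fit. Exact permutation p-values compare a difference between groups with those under every regrouping of their libraries.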

Additional observations from a re-analysis of the deposited data

How the results depend on the processing

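The counts of R2 against R1 (2063 higher, 1295 lower), of fallers called higher (1793) and of risers called lower (1163) stayed within 1.5 times under RLE size factors, no filter, DESeq2, sums per locus and a fit of the compared libraries alone. With the replicate block they were 1968, 1230, 1733 and 1108. Same-numbered R2 and R1 libraries did not deviate together (correlations between -0.04 and -0.03), so the numbers were not taken as pairs. With no fold threshold in either comparison, which redefines the nitrate classes too, the counts were 3482, 2643, 3041 and 2366, and at 4-fold or more 811, 424, 635 and 366. Leaving out single libraries gave 1640 to 1954, 818 to 1209, 1499 to 1962 and 746 to 1078. The 858 fallers called again in R4 became 1416 with no fold threshold and 251 at 4-fold, and 667 to 1119 without single libraries. For risers called lower in R2, the 115 called lower in R4 became 76 in sums per locus, 456 with no fold threshold, 18 at 4-fold, 62 in the libraries alone and 55 to 232 without single libraries. The 153 called higher in R4 became 279, 34, 67 and 80 to 210 under the last 4 of these. The 304 called lower in R5 became 573, 41, 0 and 143 to 431 under the same 4. That 0 is by edgeR, in a fit that called 0 models of any class, and DESeq2 on all libraries gave 383. The 279 calls of R1 against T6 became 534 by DESeq2, 419 with no fold threshold, 64 at 4-fold, 596 in the libraries alone and 14 to 198 without single libraries. The step along the line kept its direction in every alternative run, between -26.7 and -25.3 points for all moved models, -22.1 and -20.3 for risers and -35.9 and -31.1 for fallers. The difference between risers of day 1 and day 6 turned to -2.54 points at 4-fold in R2 against R1 with the nitrate classes kept. Of 132 values of named models under alternatives, 127 kept their call and 5 lost it, each without 1 library. The cause was not tested.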
